A study of Mus musculus with 9 samples.

Results

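Major histocompatibility complex (MHC) class II genes and the genes that serve them were described across 9 RNA sequencing libraries of mouse bone marrow-derived neutrophils. The members were taken by symbol from the gene identifiers of the deposited count tables, and all 8 listed symbols were found among the 22173 genes: Cd74, H2-Aa, H2-Ab1, H2-Eb1, H2-DMa, H2-DMb1, Ciita and Ctss. All 8 passed the filter on low counts that left 12094 genes for testing. The cells were wild-type primary mouse cells, and they had spent 2 days inside a hydrogel of gelatin methacryloyl, a chemically modified gelatin that is crosslinked into gels of different stiffness. The elastic modulus was 1.5 kPa in low gels, which served as the control, 2.6 kPa in middle gels and 5.7 kPa in high gels, with 3 libraries at each stiffness. The series title names the polarization of neutrophils as its subject, and the gels were lysed to free the cells before RNA was extracted. No source used here gives the age or number of the mice, the purity of the neutrophils or the meaning of a replicate number, so the spread between libraries that the p-values rest on may be technical in part or in whole.

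MHC class II molecules are pairs of an alpha and a beta chain that display peptides from endocytosed protein to CD4 T cells. H2-Aa and H2-Ab1 encode the chains of the mouse I-A molecule, and H2-Eb1 encodes the beta chain of I-E. The invariant chain, the product of Cd74, blocks the groove of newly made class II molecules and carries them to endosomes, where the protease cathepsin S, the product of Ctss, cuts it down to a small remnant. The H2-DM molecule, made of the H2-DMa and H2-DMb1 products, then exchanges that remnant for peptide. Ciita encodes the class II transactivator, a coactivator without DNA binding of its own that is recruited by factors bound to short boxes in class II promoters. Dendritic cells, B cells and macrophages are the main cells that carry class II, and neutrophils usually carry little of it unless stimulated.

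The boxes that recruit the transactivator were looked for in the sequence before the start of each member, because the transactivator is the common control point of class II genes. Of the 8 members 5 matched the RefSeq promoter table by symbol. The table is on GRCm38.p6, an earlier build than the GRCm39 of the count tables, so the coordinates here belong to GRCm38.p6 alone. The windows hold the 250 bases before the annotated start, 5′ to 3′ on the strand of the gene. H2-Aa lies at chr17:34287824-34288073 on the minus strand. H2-Eb1 lies at chr17:34305617-34305866, H2-DMb1 at chr17:34152941-34153190 and Ctss at chr3:95526536-95526785, each on the plus strand. Capitals mark a match to a searched motif: an X box or a Y box in H2-Eb1 and H2-DMb1, a cyclic AMP response element followed by a Y box in H2-Aa, and an interferon response element in Ctss.
H2-Aa: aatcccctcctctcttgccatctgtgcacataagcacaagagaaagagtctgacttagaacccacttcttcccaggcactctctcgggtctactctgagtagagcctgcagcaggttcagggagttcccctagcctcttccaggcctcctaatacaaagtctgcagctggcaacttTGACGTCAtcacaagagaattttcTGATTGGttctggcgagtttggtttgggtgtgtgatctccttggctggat
H2-Eb1: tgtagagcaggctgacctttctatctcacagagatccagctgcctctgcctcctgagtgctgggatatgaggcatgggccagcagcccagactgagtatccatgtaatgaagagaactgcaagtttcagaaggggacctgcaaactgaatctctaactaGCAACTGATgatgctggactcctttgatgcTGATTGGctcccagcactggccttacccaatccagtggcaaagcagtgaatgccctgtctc
H2-DMb1: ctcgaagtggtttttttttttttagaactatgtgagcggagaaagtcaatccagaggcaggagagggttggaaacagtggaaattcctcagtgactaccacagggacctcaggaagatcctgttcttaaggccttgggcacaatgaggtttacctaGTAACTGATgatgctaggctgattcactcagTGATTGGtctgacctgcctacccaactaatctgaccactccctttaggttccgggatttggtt
Ctss: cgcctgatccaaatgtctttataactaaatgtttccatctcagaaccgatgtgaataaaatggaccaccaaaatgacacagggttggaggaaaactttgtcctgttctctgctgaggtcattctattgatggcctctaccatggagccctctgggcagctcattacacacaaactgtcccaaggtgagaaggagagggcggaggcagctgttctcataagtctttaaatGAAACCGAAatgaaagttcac

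The letters searched on both strands were GNAACNGAT for the X box, TGATTGG for the Y box, TGACGTCA for the cyclic AMP response element and GAAANNGAA for the interferon response element. They were chosen after these promoters had been read. The X box letters stood 91 to 83 bases before the start of H2-Eb1 and 94 to 86 bases before that of H2-DMb1, with a Y box 61 to 55 and 63 to 57 bases before the start. The Y box of H2-Aa lay 50 to 44 bases and its cyclic AMP response element 74 to 67 bases before the start. Of the 32851 promoters in the table, 1.75% held the X box letters, 7.23% the Y box, 1.55% the cyclic AMP response element and 7.13% the interferon response element. The element in Ctss lay 21 to 13 bases before its start. Both windows listed for H2-DMa, chr17:34122582-34122831 and chr17:34125268-34125517, held none of these letters. The annotated H2-DMa overlaps another gene, Brd2, and whether these windows lie at the start used for H2-DMa was not tested. Their lack of matches therefore does not show that H2-DMa has no such boxes. Around the X box the H2-Eb1 and H2-DMb1 windows shared a stretch of 18 letters, CTAGNAACTGATGATGCT, with 1 unequal base at N. That stretch was picked as the longest one these 2 windows shared. Of all genes in the table, only these 2 held it, but so long a string taken from them is rarely met elsewhere by chance. A match describes the letters in the window and not a bound site.

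The 9 libraries held 13.2 to 19.5 M counts each, with 14042 to 14914 genes detected. In a principal component analysis the first axis held 68.1% of the variance. After removal of group means, replicate 1 libraries correlated negatively with replicate 2 and 3 libraries of other stiffnesses (-0.777 to -0.65). The label of the cells was checked against 10 neutrophil markers, all of them detected, whose summed level was 2899 to 3369 CPM (counts for each 1 M counts of the library, after TMM scaling of its total) in replicate 1 and 12011 to 21701 CPM in replicates 2 and 3. In the same libraries the 10 macrophage markers summed to 7043 to 8152 CPM in replicate 1 and 4561 to 7149 CPM in replicates 2 and 3. The macrophage sum was above the neutrophil sum in every replicate 1 library and below it in the other 6. In replicate 1 the lysosomal glycoprotein gene Gpnmb was the largest part of the macrophage sum, with 4960 CPM on average, against 2205 CPM in the others. In bulk RNA, fewer cells of a type and less RNA per cell cannot be told apart, and the members are not assigned to neutrophils alone.

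Levels between genes were compared as FPKM, in which the authors divided counts by the exonic size of the gene and by the total of the library. Ctss led the list by far, with 937 to 1600 FPKM over the 9 libraries. Cd74 followed with 130 to 299 FPKM. The chains H2-Aa (52.3 to 107 FPKM) and H2-Ab1 (35.2 to 90.3 FPKM) overlapped, and H2-Eb1 had 26.8 to 50.0 FPKM. The peptide editor chain H2-DMb1 had 5.69 to 14.8 FPKM. H2-DMa (1.35 to 3.83 FPKM) and Ciita (0.48 to 2.1 FPKM) were lowest, but their deposited exonic sizes were 8325 and 9775 bases against 1128 to 1669 bases for the other members. In the RefSeq annotation H2-DMa overlaps Brd2 and Ciita overlaps Dexi, and no source used here gives the strand setting of the counting, so the place of these genes in the order is uncertain. H2-DMb1 has a near-identical paralog, H2-DMb2, and reads could be split between them.

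All CPM are given after TMM scaling, which corrects for a few genes taking up much of a library, and log2 fold changes are given ± standard error. "Rose" and "fell" refer to a Benjamini-Hochberg adjusted p under 0.05 over all genes tested in edgeR's quasi-likelihood test.

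Stiffness was followed first in the invariant chain and the class II chains, which present the peptide. Cd74 had 182, 298 and 309 CPM in low gels (replicates 1, 2 and 3), 188, 407 and 411 CPM in middle gels and 187, 432 and 439 CPM in high gels. Replicate 1 stayed within a few CPM at every stiffness, while in replicates 2 and 3 both stiffer gels lay above the low gel. H2-Ab1, the I-A beta chain, had 53.0, 67.4 and 79.4 CPM in low gels, 46.6, 96.4 and 98.2 CPM in middle gels and 42.1, 111 and 110.1 CPM in high gels. It was lower in the stiffer gels in replicate 1 and higher in them in replicates 2 and 3, so the 3 groups overlapped.

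H2-Eb1, the I-E beta chain, had 76.7, 60.8 and 62.4 CPM in low gels, 49.9, 68.0 and 74.8 CPM in middle gels and 44.8, 85.9 and 70.4 CPM in high gels. Its replicate 1 library was the highest of the low gels and the lowest of the middle and of the high gels. The symbol H2-Ea, of the I-E alpha chain, was not found among the genes counted. The H2-Eb1 values therefore do not show that an I-E molecule was made. H2-Aa, the I-A alpha chain, had 78.9, 88.4 and 82.4 CPM in low gels, 64.6, 86.1 and 109 CPM in middle gels and 59.1, 124 and 86.9 CPM in high gels. The group means of H2-Aa were 90.2 ± 32.8 CPM in high gels and 83.3 ± 4.81 CPM in low gels (SD, n = 3 each), so the difference was smaller than the spread among the high gels.

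**Figure D1:**
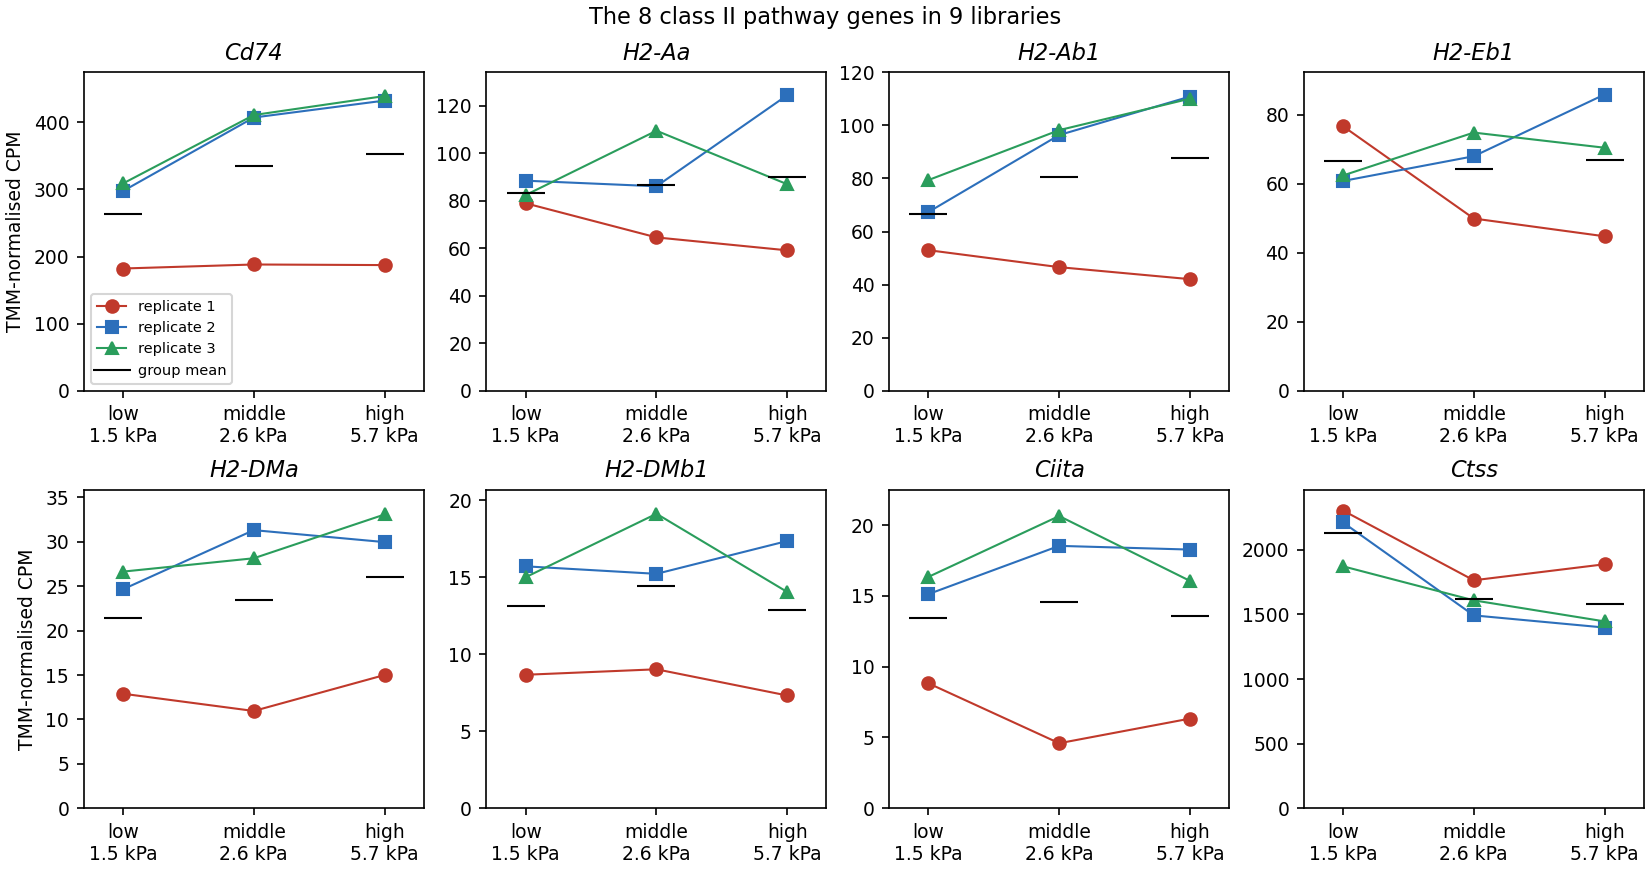
TMM-normalised CPM (y axis, from 0) of the 8 genes in low, middle and high gels (x axis), with 1 point per library, lines joining libraries of the same replicate number and a black bar at the mean of each group. Replicate 1 lies below replicates 2 and 3 at every stiffness for 6 of the genes, and Ctss is highest in the low gels for every replicate number.

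High against low stiffness, the largest step of the study, gave no member past the threshold in the test over all 9 libraries without a term for the replicate number: 0 of 8 members were called, where 0.0910% of the tested genes were (11 of 12094, and 934 at an unadjusted p under 0.05). Cd74 averaged 353 ± 143 CPM in high gels and 263 ± 70.1 CPM in low gels (SD, n = 3 each), a log2 fold change of 0.42 ± 0.42 with an adjusted p of 0.958. H2-Ab1 averaged 87.7 ± 39.5 CPM in high gels and 66.6 ± 13.2 CPM in low gels (0.40 ± 0.41, adjusted p = 0.966). The smallest adjusted p among the members was that of Ctss, which averaged 1578 ± 270.1 CPM in high gels and 2130 ± 227 CPM in low gels (-0.43 ± 0.19, adjusted p = 0.636, edgeR). By DESeq2, too, 0 of 8 members were called, where 333 genes were.

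With the replicate number as a block, Cd74 rose and Ctss fell in high gels. The background of this fit was 15.5% of the tested genes (1869 of 12094), with 6.72% higher and 8.73% lower in high gels, against which 2 of 8 members were called. Cd74 was higher by 0.36 ± 0.10 (adjusted p = 0.0384) and Ctss lower by -0.44 ± 0.10 (adjusted p = 0.0161). H2-Ab1 was at 0.30 ± 0.17 (adjusted p = 0.282) and H2-DMa at 0.27 ± 0.12 (adjusted p = 0.159), and neither passed. H2-Aa (0.06 ± 0.19), H2-Eb1 (-0.03 ± 0.24), H2-DMb1 (-0.04 ± 0.15) and Ciita (-0.05 ± 0.21) lay within their standard error. The median log2 fold change of the 8 members was 0.016, beside -0.0026 for all tested genes.

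The call for Cd74 held without any 1 of the replicate 1 libraries and was lost without any 1 of the others. Its adjusted p was 0.173 without high replicate 2, 0.152 without high replicate 3, 0.152 without low replicate 2 and 0.185 without low replicate 3. It was 0.0508 without middle replicate 2 and 0.0699 without middle replicate 3. The log2 fold change of Cd74 stayed between 0.29 and 0.51 in all 9 of these fits. The call for Ctss held in 5 of 9 such fits, with a log2 fold change of -0.52 to -0.33. It was lost without high replicate 2 (adjusted p = 0.155), high replicate 3 (0.0773), low replicate 2 (0.103) or low replicate 3 (0.0518). H2-Ab1 passed in 2 of 9 such fits, without high replicate 1 (0.50, adjusted p = 0.0309) or low replicate 1 (0.55, 0.00171). Its log2 fold change was 0.12 to 0.55 over the 9 fits.

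Replicates 2 and 3 alone, with 2 libraries in each group and the block kept, gave 4 called members of 8. In this fit 26.1% of tested genes were called, 11.9% higher and 14.1% lower in high gels. The subset was chosen with earlier results of these data known. It leaves out replicate 1, in which H2-Ab1 and H2-Eb1 were lower in the high gel. Cd74 rose by 0.52 ± 0.08 (adjusted p = 1.09e-04), H2-Ab1 by 0.59 ± 0.09 (1.20e-04) and H2-Eb1 by 0.34 ± 0.10 (0.0199) in high gels, and Ctss fell (-0.52 ± 0.09, adjusted p = 6.09e-04). H2-Aa (0.30 ± 0.17, adjusted p = 0.244), H2-DMa (0.29 ± 0.12, 0.0825), H2-DMb1 (0.03 ± 0.16, 0.911) and Ciita (0.13 ± 0.14, 0.553) did not pass.

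**Figure D2:**
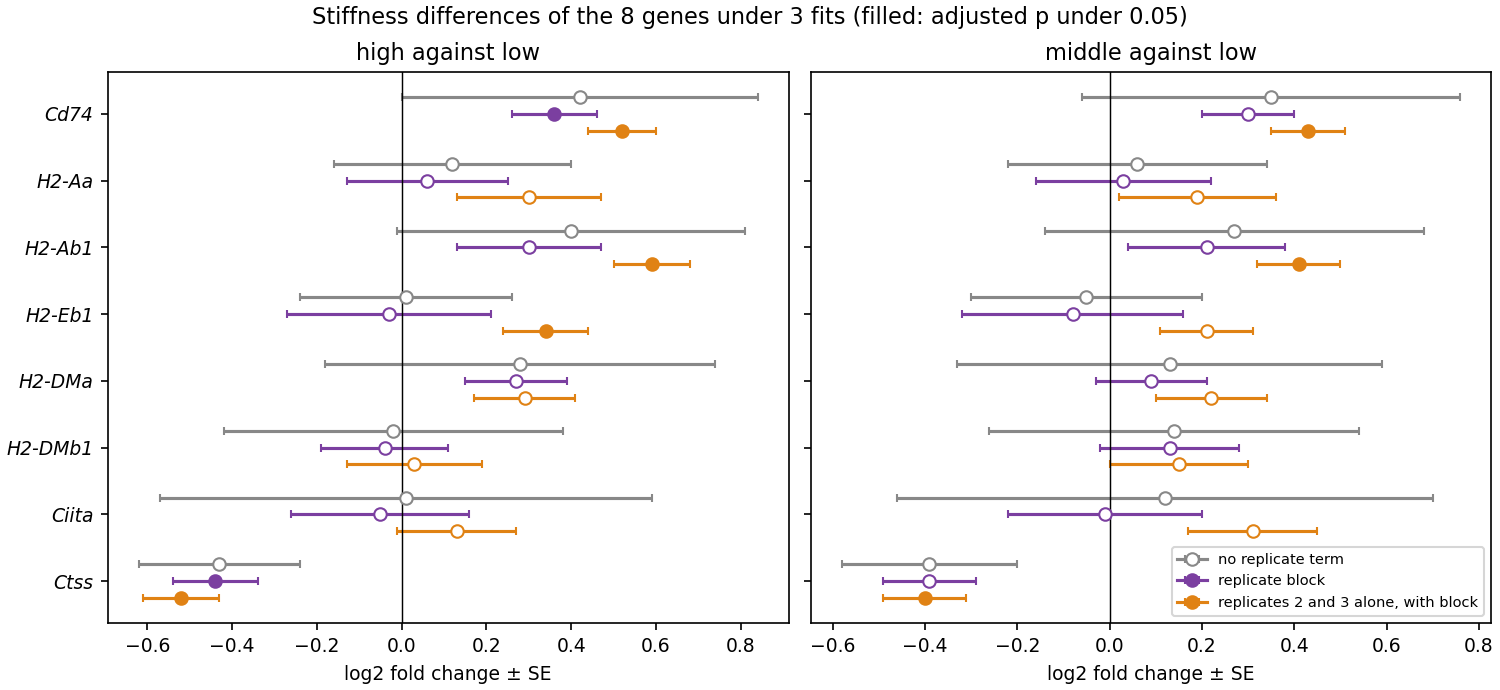
Log2 fold changes (x axis, bars are standard errors) of the 8 genes for high against low (left) and middle against low gels (right) in 3 fits: all 9 libraries with no replicate term, all 9 with the replicate block, and replicates 2 and 3 alone with the block. Filled points have an adjusted p under 0.05; the fit without a replicate term fills none, and the fit of replicates 2 and 3 fills 4 genes on the left and 3 on the right.

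Middle against low stiffness, the smaller step, called 0 of 8 members without the block, where 0% of tested genes were called (318 genes at an unadjusted p under 0.05, and 48 by DESeq2). It called 0 of 8 with the block, where 1.84% were. Ctss had 1764, 1493 and 1609 CPM in middle gels (replicates 1, 2 and 3), against 2305, 2212 and 1873 CPM in low gels. All 3 middle libraries lay below all 3 low libraries, which held for 4.20% of tested genes in that direction. The fitted difference of Ctss was -0.39 ± 0.10 with the block (adjusted p = 0.0932) and that of Cd74 0.30 ± 0.10 (adjusted p = 0.204). Ctss passed with the block once high replicate 1 (adjusted p = 0.035) or low replicate 1 (0.0265) was left out, and Cd74 (0.00632) and H2-Ab1 (0.0173) passed without low replicate 1. In replicates 2 and 3 alone, where 6.75% of genes were called, Cd74 (0.43 ± 0.08, adjusted p = 0.00225) and H2-Ab1 (0.41 ± 0.09, 0.00904) rose and Ctss fell (-0.40 ± 0.09, 0.0154).

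High against middle stiffness called 0 of 8 members without the block (0% of tested genes, 179 at an unadjusted p under 0.05), with it (0.0165%) and in replicates 2 and 3 alone (7.37%). Cd74 differed by 0.06 ± 0.10 and Ctss by -0.05 ± 0.10 with the block (adjusted p = 0.89 and 0.917). Cd74 averaged 335 ± 127 CPM and Ctss 1622 ± 136 CPM in middle gels (SD, n = 3), which for both genes was nearer to the mean of high gels than to that of low gels. Middle and high gels were set against the same 3 low libraries, so the 2 sets of values are not independent. One test for any difference among the 3 stiffness groups called 0 members without the block (0% of genes, 551 at an unadjusted p under 0.05). With the block it called Ctss (adjusted p = 0.0322), where 9.0% of genes were called, and Cd74 had an adjusted p of 0.0898. The call for Ctss in this test was kept in 2 of 9 fits with 1 library left out, those without high replicate 1 (adjusted p = 0.0106) or low replicate 1 (0.0129), and its adjusted p was at most 0.224 in the others.

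The peptide editors were less abundant in counts. H2-DMa had 12.9, 24.7 and 26.6 CPM in low gels (replicates 1, 2 and 3), 10.9, 31.3 and 28.2 CPM in middle gels and 15, 30.0 and 33.1 CPM in high gels. It was higher in the high than in the low gel for every replicate number, by 0.22, 0.28 and 0.31 log2 units, but did not pass in any stiffness test. H2-DMb1 had 8.67, 15.7 and 15 CPM in low gels, 9.03, 15.2 and 19.1 CPM in middle gels and 7.32, 17.4 and 14.0 CPM in high gels. Its high-minus-low difference was positive in 1 replicate number and negative in 2.

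Ciita, the coactivator, had 8.82, 15.1 and 16.3 CPM in low gels, 4.59, 18.5 and 20.6 CPM in middle gels and 6.33, 18.3 and 16.1 CPM in high gels. Its lowest library held 62 counts. The means were 13.6 ± 6.35 CPM in high gels, 14.6 ± 8.72 CPM in middle gels and 13.4 ± 4.04 CPM in low gels (SD, n = 3 each), which differed by less than the spread within each group.

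Within replicate numbers, high minus low had the same sign in all 3 pairs for 3 members, Cd74, H2-DMa and Ctss, as for 48.5% of tested genes. For Cd74 the differences were 0.04, 0.54 and 0.51 log2 units in replicates 1, 2 and 3. For Ctss they were -0.29, -0.66 and -0.37. For H2-Eb1 they were -0.77, 0.50 and 0.17, and for H2-Ab1 -0.33, 0.72 and 0.47. H2-Aa (-0.42, 0.49 and 0.08) and Ciita (-0.47, 0.27 and -0.03) were also lower in the high gel of replicate 1.

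**Figure D3:**
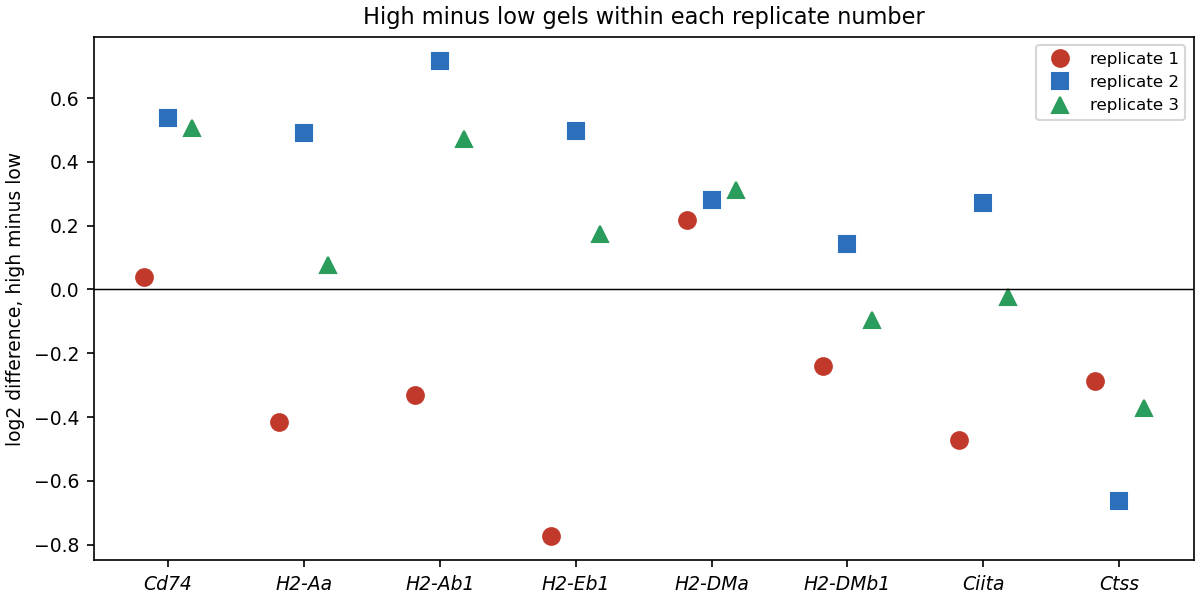
Log2 difference between the high and the low gel (y axis) within each replicate number for the 8 genes (x axis), 1 point per pair of libraries. Replicate 1 lies lowest for 7 of the 8 genes and below 0 for 6, and Ctss lies below 0 in every replicate number.

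Whether the high-against-low difference itself differed between replicate 1 and replicates 2 and 3 was tested with an interaction term. That split was chosen with earlier results of these data known, and replicate 1 gives 1 high and 1 low library, so the error is borrowed from the spread of the other libraries. By this test 3 of 8 members were called, all lower in replicate 1, beside 8.36% of tested genes (5.84% in that direction). The high-against-low log2 fold change in replicate 1 minus that in replicates 2 and 3 was -1.12 ± 0.18 for H2-Eb1 (adjusted p = 0.00272), -0.92 ± 0.16 for H2-Ab1 (0.00451) and -0.48 ± 0.12 for Cd74 (0.0267). H2-Aa (-0.72 ± 0.29, adjusted p = 0.168) and Ciita (-0.61 ± 0.27, 0.209) did not pass, nor did Ctss (0.23 ± 0.15, 0.393). It could not be fitted without high replicate 1 or low replicate 1. Of the 7 libraries that could be left out, none ended the calls for H2-Eb1 or H2-Ab1. That for Cd74 was lost without low replicate 2 (adjusted p = 0.144), low replicate 3 (0.0834), middle replicate 2 (0.0879) or middle replicate 3 (0.0633), and H2-Aa was called without high replicate 3 (-0.96, 0.00481).

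Most members were lower in replicate 1. Against the mean of replicates 2 and 3, with stiffness in the model, replicate 1 had 6 members lower and 1 higher, in a comparison in which 65.4% of tested genes were called (32.9% higher and 32.5% lower). The split between replicate 1 and the others was chosen with earlier results of these data known. Cd74 averaged 186 CPM in the 3 replicate 1 libraries and 383 CPM in the other 6 (-1.02 ± 0.09, adjusted p = 2.92e-06). H2-Ab1 averaged 47.2 CPM in replicate 1 and 93.7 CPM in the others (-0.96 ± 0.15, 5.87e-04). H2-DMa fell by 1.16 ± 0.12 in replicate 1 (4.83e-06), H2-DMb1 by 0.95 ± 0.14 (8.44e-05) and Ciita by 1.41 ± 0.20 (1.10e-04). The median over the 8 members was -0.95, beside 0.0054 for all tested genes.

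H2-Aa, Ctss and H2-Eb1 were less firmly placed in that comparison. H2-Aa averaged 67.6 CPM in replicate 1 and 96.3 CPM in the others (-0.51 ± 0.17, adjusted p = 0.0331), and its call was lost without high replicate 1 (0.17) or middle replicate 1 (0.111), or with no filter on low counts (0.0605). Ctss averaged 1986 CPM in replicate 1 and 1672 CPM in the others (0.26 ± 0.09, 0.0243), with overlapping libraries. Its call was lost without high replicate 1 (0.112), 2 (0.0855) or 3 (0.0553), without middle replicate 1 (0.0553) or 2 (0.0579), and without low replicate 3 (0.0711). H2-Eb1 did not pass (-0.31 ± 0.21, adjusted p = 0.234), but without low replicate 1 it was -0.65 with an adjusted p of 7.97e-05. For 6 members every replicate 1 library lay below every other library, as for 26.5% of tested genes. Replicate 3 against replicate 2 called 0 of 8 members and 0% of tested genes in edgeR (150 genes at an unadjusted p under 0.05).

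The proportions of the class II genes to each other were compared as FPKM ratios within a library, which do not depend on the total of the library. H2-Eb1 to H2-Ab1 was 1.03, 0.766 and 0.761 in replicate 1 of the low, middle and high gels and 0.457 to 0.645 in the other 6 libraries. The replicate 1 libraries thus held more H2-Eb1 for each H2-Ab1 than any other library. H2-Aa to H2-Ab1, the 2 chains of I-A, was 1.47 to 1.58 in replicate 1 and 0.836 to 1.39 elsewhere. Cd74 to H2-Ab1 varied least, from 2.90 in low replicate 1 to 3.75 in high replicate 1, with the other 7 libraries between. Ctss to Cd74 was 9.15 to 12.3 in replicate 1. In replicates 2 and 3 this ratio was 7.25 and 5.92 in low gels, 3.58 and 3.82 in middle gels and 3.16 and 3.22 in high gels, so both stiffer gels lay below both low gels.

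**Figure D4:**
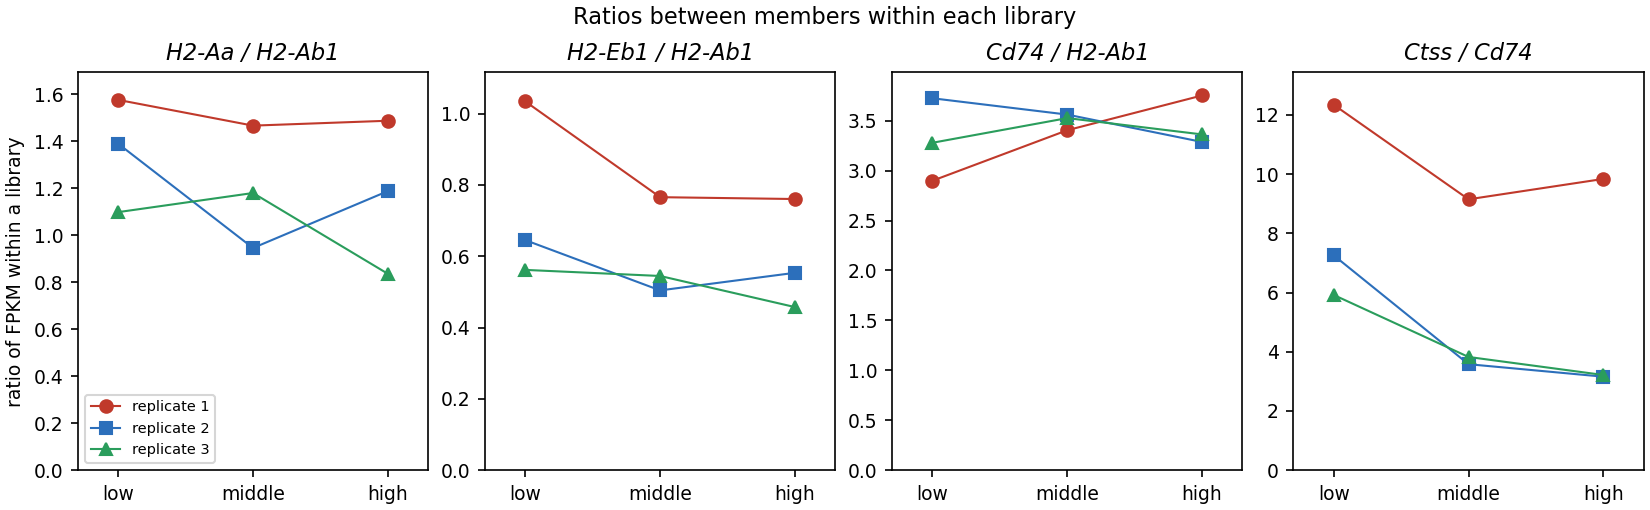
Ratios of FPKM between pairs of members (y axis, from 0) in low, middle and high gels (x axis), 1 point per library and lines joining the same replicate number. H2-Eb1 to H2-Ab1 and Ctss to Cd74 are higher in replicate 1 than in any other library, and Cd74 to H2-Ab1 stays between 2.90 and 3.75.

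Across the 9 libraries the members were described by Pearson's r of log2 CPM, which is dominated by the gap between replicate 1 and the rest. Cd74 and H2-Ab1 varied together, with r = 0.98 before and 0.89 after the mean of each replicate number was subtracted. H2-Aa and H2-Eb1 had r = 0.88 before and 0.85 after. Ciita had r = 0.90 with Cd74 before that subtraction and 0.24 after it, and with H2-Eb1 0.73 both ways. Ctss ran opposite to Cd74, with r = -0.74 before and -0.88 after. H2-DMa and H2-DMb1, whose products pair, had r = 0.87 before and -0.49 after.

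The genes most like the mean standardised profile of Cd74, H2-Aa, H2-Ab1 and H2-Eb1, among 9192 genes that averaged 5 CPM or more, included Tulp4 (r = 0.993), Depdc5 (0.990), Glg1 (0.982) and Prkce (0.977), over 9 libraries. Tulp4 had 27.3, 28.1 and 29.5 CPM in low gels (replicates 1, 2 and 3), 24.0, 31.8 and 32.1 CPM in middle gels and 23.4, 34.5 and 31.9 CPM in high gels, so replicate 1 was below replicates 2 and 3 at each stiffness. Depdc5 (0.976) and Tulp4 (0.971) also led after replicate means were subtracted, before Sik1, Lpar2 and Tango2 (0.964 to 0.969). Closest to Ctss were Npc2 (0.962), Rftn1 (0.958) and Sord (0.954), and after subtraction Lrrc27 (0.989), Zfp790 (0.979) and Osbpl9 (0.978). Such values are the highest of many and describe these libraries only.

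Other genes of the pathway were taken from lists grouped by role and are given for high against low with the replicate block, beside the 15.5% background. Of the 4 tested chains and editors outside the members, 0 were called. The most abundant were H2-Ob, a chain of the H2-DM inhibitor H2-O (-0.54 ± 0.28, adjusted p = 0.228), and H2-DMb2 (0.03 ± 0.30, 0.963), and the median of the list was -0.43. Of the 7 subunits that bind the X and Y boxes, 0 were called (median 0.13), with Creb1, which binds the cyclic AMP response element, at -0.22 ± 0.09 (0.148) and Nfya, of the Y box factor NF-Y, at 0.13 ± 0.09 (0.342).

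Among 12 tested genes that control Ciita, 1 rose and 3 fell in high gels (median -0.12). Prdm1, a repressor of Ciita, rose by 1.13 ± 0.21 (adjusted p = 0.00977). Among those that fell were Irf1, which carries the interferon gamma signal to Ciita (-0.55 ± 0.10, 0.00479), and Irf8, a myeloid and B cell factor (-0.70 ± 0.14, 0.00979). These 3 did not pass without the block, where adjusted p was 0.525 for Prdm1, 0.247 for Irf1 and 0.88 for Irf8. Ciita itself lay within its standard error in the same comparison.

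Of 12 antigen processing genes, 1 rose and 2 fell (median -0.02). Ctsl, the protease cathepsin L that cuts the invariant chain in thymic epithelium, rose by 0.62 ± 0.11 (adjusted p = 0.00476), while Lgmn, an asparagine endopeptidase of endosomes (-1.18 ± 0.23, 0.0188), and Ctsb, cathepsin B (-0.52 ± 0.16, 0.0499), fell along with Ctss. Of 8 genes of class II traffic and turnover, 1 fell, the endosomal tetraspanin Cd63 (-0.40 ± 0.12, 0.044), and Marchf1, the ligase that ubiquitinates class II, was at 0.30 ± 0.15 (0.199). Of 5 partners of Cd74, 2 fell: Cxcr4 (-0.99 ± 0.10, 1.48e-04) and Cxcr2 (-0.60 ± 0.15, 0.0289), chemokine receptors that can pair with surface CD74, while Mif, its ligand, was at 0.20 ± 0.09 (0.146). Of 6 costimulatory and inhibitory ligands, Pdcd1lg2, which encodes PD-L2, fell (-1.05 ± 0.11, 1.93e-04), also without the block (-1.05 ± 0.13, 0.0464). Cxcr4 (-0.77 ± 0.10, 0.00368) and Pdcd1lg2 (-0.54 ± 0.11, 0.0284) were also the listed genes that fell in middle against low gels.

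Between replicate 1 and the others, all 4 tested chains and editors outside the members fell in replicate 1, beside the 32.5% background: H2-Oa (-1.56 ± 0.22, adjusted p = 7.86e-05), H2-Ob (-1.19 ± 0.26, 0.00253), H2-DMb2 (-1.02 ± 0.28, 0.00839) and H2-Eb2 (-0.82 ± 0.34, 0.0493). Of the 7 box-binding subunits 2 fell and 3 rose. Rfx5, the X box subunit, fell by 1.06 ± 0.14 (4.22e-05) and Creb1 by 0.46 ± 0.08 (4.65e-04), while Nfyc rose by 0.33 ± 0.07 (0.00203). Of 12 genes that control Ciita 7 fell and 0 rose. They were led by Ifngr1, a chain of the interferon gamma receptor (-1.08 ± 0.09, 9.90e-07), and Spi1, the myeloid factor PU.1 (-0.72 ± 0.08, 7.49e-06). The 7 also included the repressor Prdm1 (-1.06 ± 0.19, 0.0012). Antigen processing genes went both ways, with 5 higher and 4 lower. Cstb, an inhibitor of cysteine cathepsins, rose by 1.46 ± 0.12 (3.42e-06), and Ifi30, a thiol reductase of endosomes, fell by 1.23 ± 0.08 (2.83e-07). Of the traffic genes 4 rose and 2 fell, Cd63 by 1.82 ± 0.10 (7.68e-08) upward and Marchf1 by 1.35 ± 0.14 (1.70e-05) downward in replicate 1.

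**Figure D5:**
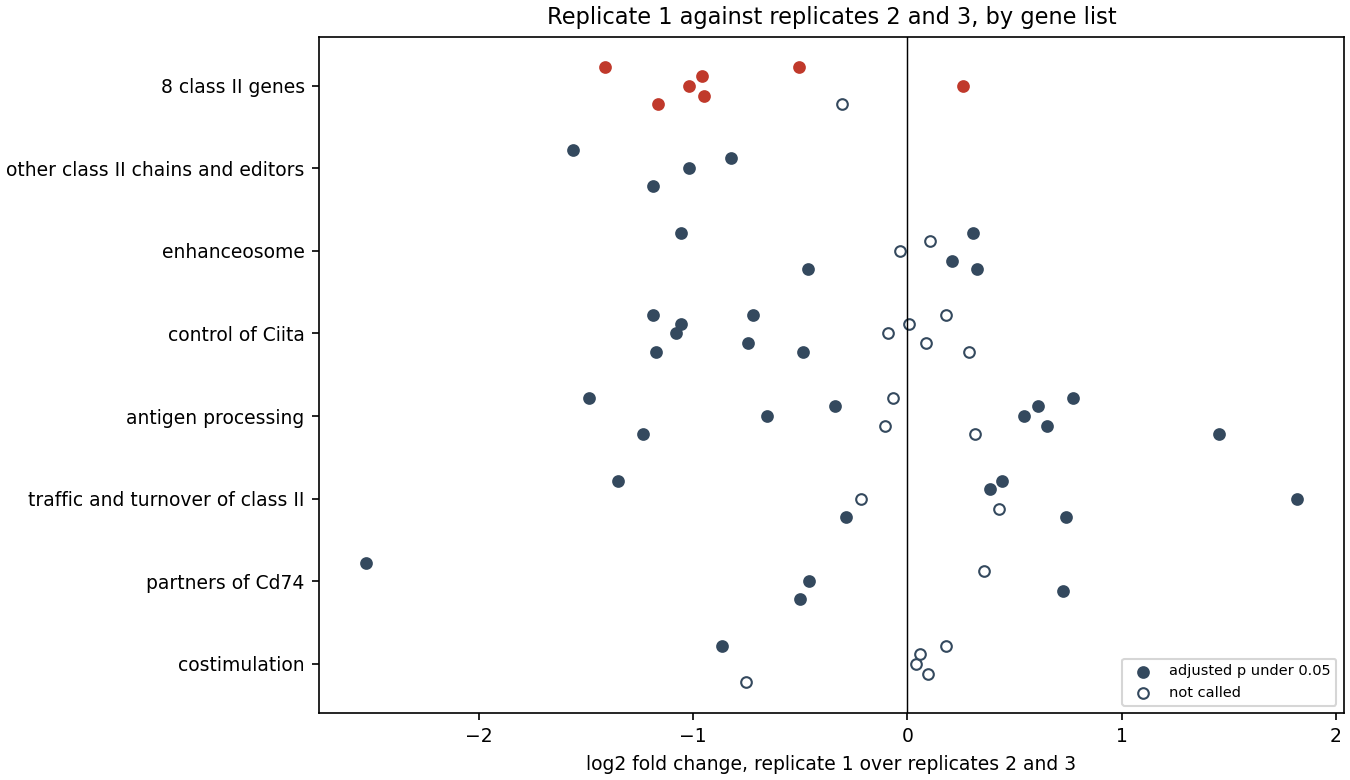
Log2 fold change of replicate 1 over replicates 2 and 3 (x axis) for each tested gene of 8 lists (rows, the members on top), 1 point per gene, filled where the adjusted p was under 0.05. The members and the other class II chains lie mostly left of 0, while antigen processing and traffic genes lie on both sides.

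Markers of other cells that carry class II moved with the replicate number, and so did markers of further cell types. The 7 of 8 B cell markers found in the files summed to 33.5 to 58.9 CPM in replicate 1. Their sum was 112 to 224 CPM in replicates 2 and 3, and all 7 fell in replicate 1. Over all tested genes, 32.5% fell and 32.9% rose in this comparison. The 10 dendritic cell markers summed to 76.7 to 105 CPM in replicate 1 and 103 to 131 CPM in the others, ranges that overlapped. Of the 9 that were tested, 5 fell in replicate 1 and 2 rose, Xcr1 (2.70, adjusted p = 2.68e-06) and Ccr7 (0.71, 8.83e-04). The 5 monocyte markers summed to 389 to 694 CPM in replicate 1 and 1229 to 1655 CPM in the others, and 4 of 5 fell. Of the 10 macrophage markers 6 fell in replicate 1 and 2 rose, Gpnmb (1.30, 1.41e-04) and Adgre1 (0.25, 0.0193), and of the 10 neutrophil markers 9 fell. No marker of these cell types, of macrophages or of neutrophils that is in the files was at 0 in every library. All 4 eosinophil markers fell, with sums of 5.70 to 13.9 CPM in replicate 1 and 29.1 to 72.7 CPM in the others. The 3 tested T cell markers and the 1 tested natural killer cell marker fell too. Of 3 tested erythroid markers 1 rose and 0 fell, and of 2 tested osteoclast markers 1 rose and 1 fell. T cell markers summed to at most 6.67 CPM and natural killer cell markers to at most 1.99 CPM. The part of any of these cell types in the lower level of 6 members in replicate 1 was not tested.

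Between high and low gels the sums of B cell, dendritic cell and macrophage markers were lower in the high gel for every replicate number. So were the sums of eosinophil and T cell markers. Of single tested genes, 48.5% had the same sign in all 3 pairs. With the block, 8.73% of tested genes fell and 6.72% rose in high gels. Of the 4 eosinophil markers 3 fell with the block and 0 rose, and of 3 tested T cell markers 0 were called. B cell markers summed to 38.0 to 174 CPM in high gels, 33.5 to 222 CPM in middle gels and 58.9 to 224 CPM in low gels. Of the 7 tested, Pax5 (-0.96, adjusted p = 0.0154) and Ebf1 (-0.92, 0.026), B cell transcription factors, fell with the block and none rose. Dendritic cell markers summed to 82.9 to 113 CPM in high gels and 105 to 131 CPM in low gels, and of 9 tested 2 fell, Irf4 (-0.69, 0.0129) and Siglech (-1.42, 0.0487). Macrophage markers summed to 4561 to 7465 CPM in high gels and 7117 to 8152 CPM in low gels. Of the 10 macrophage markers 4 fell, Mertk (-0.94, 8.48e-04), Gpnmb (-1.04, 0.0116), C1qc (-1.16, 0.0146) and C1qa (-1.27, 0.0222), and 2 rose, Csf1r (0.59, 0.00322) and Adgre1 (0.38, 0.0206). Monocyte markers summed to 389, 1229 and 1449 CPM in high gels (replicates 1, 2 and 3) and to 694, 1500 and 1412 CPM in low gels, so replicate 3 went the other way. Of these 5 markers F13a1 (0.69, 0.00751) and Cx3cr1 (0.49, 0.0416) rose, and Ly6c2 (-0.47, 0.0213) and Ms4a4c (-1.31, 0.0314) fell. Neutrophil markers summed to 3332, 12131 and 12011 CPM in high gels and to 2899, 21701 and 18722 CPM in low gels. Their sum was higher in the high gel of replicate 1 and lower in those of replicates 2 and 3, in which Cd74 was higher by 0.54 and 0.51 log2 units. Of the 10 neutrophil markers 3 fell, Cxcr2 (-0.60, 0.0289), Retnlg (-1.42, 0.0302) and Ltf (-1.18, 0.0476), and 0 rose. The part of any of these cell types in the stiffness differences of Cd74 and Ctss was not tested.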

How the data were processed

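Per the labels, poly(A) RNA of 9 libraries was sequenced from stranded libraries. The deposited files hold raw counts per gene with no normalization, the authors' FPKM, and the exonic gene size in bases. The submitters' processing notes name GRCm39 as the build, and HISAT2 2.0.1, HTSeq 0.6.1, DESeq2 and cutadapt 1.9.1 as tools. No source used here gives the strand setting or the annotation release. The deposited FPKM equalled counts over size and total within 0.0051 in 100% of genes, and served for levels between genes.

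Tests were run in R 4.3.3 with edgeR 4.0.16 (filterByExpr, TMM, robust quasi-likelihood, two-sided, Benjamini-Hochberg over all 12094 tested genes, threshold 0.05), over all 9 libraries. The code of the tests was tried on simulated counts with the same dispersion for every gene and few changed genes. That setting is simpler than these libraries, so it does not give the rate of false calls here. Members, lists, tests and alternatives were chosen with earlier results of these data known. Named genes are all members, the genes with the highest Pearson's r to them (log2 CPM, prior count 2), and of each list up to 4 called genes or the 2 most abundant; some genes that this rule names are not reported here. Alternatives were RLE size factors, other filters, DESeq2 1.42.0, the replicate block, replicates 2 and 3 alone, and each library left out. Replicates 2 and 3 alone had 12214 genes tested, and each fit with a library left out was filtered anew. Figures used Python 3.11.15 and matplotlib 3.10.9.

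The labels number replicates 1 to 3 in every group. After removal of group means the 9 same-number pairs had correlations of 0.595 to 0.856, so the block was fitted too and its values are given where they change a call. Pairs of replicates 2 and 3 of different groups correlated about as well (0.552 to 0.698), so the block mostly separates replicate 1. With the block the biological coefficient of variation was 0.115, against 0.337 without. No 2 libraries of a group were alike within counting noise (chi-square per degree of freedom at least 5.28). Totals of 13.2 to 19.5 M counts leave the rarest members with the least precision: Ciita had 62 to 365 counts.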

Additional observations from a re-analysis of the deposited data

Results flagged for a closer look

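For 3 members the difference between high and low gels differed between replicate 1 and replicates 2 and 3. They passed at an adjusted p under 0.05 (edgeR interaction term, adjusted over all genes tested), as did 8.36% of tested genes. In the same direction, lower in replicate 1, it was 5.84% of tested genes. The split was chosen with earlier results of these data known, and the test takes its error from the spread of the other libraries. The log2 fold change in replicate 1 minus that in the others was -1.12 for H2-Eb1, -0.92 for H2-Ab1 and -0.48 for Cd74. The call for Cd74 was lost when replicate 2 or 3 of the low gels or of the middle gels was left out. The single high-minus-low differences within replicates 1, 2 and 3 were -0.77, 0.50 and 0.17 for H2-Eb1, -0.33, 0.72 and 0.47 for H2-Ab1 and 0.04, 0.54 and 0.51 for Cd74. In H2-Eb1 and H2-Ab1 the high gel was lower than the low gel in replicate 1 and higher in the other two. Replicate 1 has 1 library per stiffness, so the difference within it has no repeat.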

How the results depend on the processing

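Calls depended most on the replicate number. Tested genes called for high against low were 11 without a replicate term, 333 by DESeq2, 1869 with the block, 1905 with the block and RLE size factors and 3183 in replicates 2 and 3 alone. For middle against low they were 0, 48, 222, 233 and 825, for high against middle 0, 2, 2, 1 and 900, and among the 3 groups 0, 197, 1089, 1090 and 2535. Members called with the block, with the block and RLE size factors and in replicates 2 and 3 alone were 2, 2 and 4 for high against low and 1, 1 and 3 among the groups, and 3 for middle against low in replicates 2 and 3 alone. Values near 0 changed sign. For high against low these were Ciita (-0.01 with a mean of at least 10 CPM, -0.05 with the block under either scaling), H2-Eb1 (-0.01 and -0.03) and H2-DMb1 (0.03 in replicates 2 and 3 alone). For middle against low they were Ciita (-0.01 with the block under either scaling) and H2-Eb1 (0.21 in replicates 2 and 3 alone). The cause was not tested.

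With 1 library left out, with or without the replicate block, 0 to 1826 genes were called among the 3 groups, 0 to 2469 for high against low, 0 to 661 for middle against low, 0 to 301 for high against middle and 514 to 1603 for the interaction. Members called were 0 to 3 among the groups, for high against low and for middle against low. Log2 fold changes that crossed 0 in these fits were, for high against low, Ciita (-0.25 to 0.35), H2-DMb1 (-0.28 to 0.26), H2-Eb1 (-0.23 to 0.30) and H2-Aa (-0.18 to 0.35). For middle against low they were Ciita (-0.22 to 0.54), H2-Eb1 (-0.27 to 0.25), H2-Aa (-0.17 to 0.23), H2-DMa (-0.14 to 0.47) and H2-DMb1 (-0.11 to 0.38). For high against middle all 8 members crossed 0: Cd74 (-0.21 to 0.38), Ciita (-0.53 to 0.23), Ctss (-0.19 to 0.06), H2-Aa (-0.23 to 0.29), H2-Ab1 (-0.15 to 0.46), H2-DMa (-0.19 to 0.42), H2-DMb1 (-0.42 to 0.12) and H2-Eb1 (-0.16 to 0.28). For replicate 3 against 2 all 8 did too: Cd74 (-0.04 to 0.09), Ciita (-0.17 to 0.13), Ctss (-0.10 to 0.08), H2-Aa (-0.29 to 0.15), H2-Ab1 (-0.08 to 0.21), H2-DMa (-0.04 to 0.18), H2-DMb1 (-0.14 to 0.13) and H2-Eb1 (-0.22 to 0.17). The interaction of H2-DMa was -0.13 to 0.01. The alternatives for the interaction, RLE size factors and 7 libraries left out, were chosen after seeing the data.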
